A study of Mus musculus with 3 samples.

Results

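Wfs1, Fibcd1, Mpped1, Pou3f1 and Man1a are 5 genes known as markers of the pyramidal neurons of hippocampal field CA1. They were taken by gene name from a table of 54532 genes measured by bulk RNA-seq, and all 5 were found there, each once. The RNA came from the hippocampus of mice aged 10 months on a C57BL/6 background, with 1 library for each of 3 genotypes. WT mice carry neither allele under study, PS19 mice express human tau from the Prnp promoter and serve as a tauopathy model, and PS19 Zbp1+/- mice carry the same transgene and have lost one allele of Zbp1, which encodes a sensor of left-handed nucleic acids. The labels do not say whether animals were pooled, and with 1 library per genotype no difference below has a replicate check or a p-value. The human transgene was not analysed here.

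CA1 is the output field of the hippocampal circuit: its pyramidal neurons receive excitatory input from CA3 and project to the subiculum and the cortex. Neurons of CA1 are among those known to be lost in tau models and in Alzheimer's disease. The 5 markers have unrelated functions. Wfs1 encodes wolframin, a membrane protein of the endoplasmic reticulum. Fibcd1 encodes a transmembrane protein with a fibrinogen-like domain that binds acetylated sugars. Mpped1 encodes a protein with a metallophosphoesterase domain. Pou3f1 encodes a POU-domain transcription factor. Man1a encodes a Golgi mannosidase that trims N-linked glycans. Apart from CA1, some of the 5, Wfs1 and Pou3f1 among them, are also known from neurons of the cerebral cortex. In bulk tissue none of the 5 is taken here as a pure count of CA1 cells.

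The start regions of 4 of the 5 genes were found by symbol in RefSeq (GRCm38.p6), for Wfs1, Fibcd1, Mpped1 and Man1a and not for Pou3f1. They were searched for motifs, and 3 are shown, because the levels of these genes moved together in one comparison and apart in the other. The motif search covered the 250 bases before RefSeq's start site. By the gene bounds of the table and GENCODE M21, the windows of Mpped1 and Man1a lie inside the gene, that of Wfs1 mostly does, and only that of Fibcd1 lies outside. Of the 250 bases, 223 in Wfs1, 59 in Man1a and 41 in Mpped1 are annotated as untranslated region and are not printed, which leaves 27 bases of Wfs1, not shown. Each line gives the rest, 5′ to 3′ on the gene's strand, with matches to GGGCGG, the GC box, or its reverse complement in capitals.
Fibcd1, chr2:31846006-31846255, minus strand: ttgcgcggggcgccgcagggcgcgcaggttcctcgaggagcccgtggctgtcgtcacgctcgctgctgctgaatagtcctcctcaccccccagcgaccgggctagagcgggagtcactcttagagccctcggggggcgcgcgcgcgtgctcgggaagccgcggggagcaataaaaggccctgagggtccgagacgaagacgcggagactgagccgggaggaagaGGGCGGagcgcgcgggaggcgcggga
Mpped1, chr15:83779773-83779981, plus strand: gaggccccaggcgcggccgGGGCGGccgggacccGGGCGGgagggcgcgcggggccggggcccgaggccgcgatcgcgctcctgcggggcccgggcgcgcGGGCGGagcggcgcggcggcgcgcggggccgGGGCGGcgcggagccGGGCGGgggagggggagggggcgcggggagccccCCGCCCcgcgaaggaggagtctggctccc
Man1a, chr10:54075797-54075987, minus strand: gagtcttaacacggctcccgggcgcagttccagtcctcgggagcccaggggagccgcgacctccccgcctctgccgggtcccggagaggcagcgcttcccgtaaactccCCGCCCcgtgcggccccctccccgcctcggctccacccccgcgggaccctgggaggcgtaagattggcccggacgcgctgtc
All 4 whole windows were rich in G and C, at 69.6% in Wfs1, 71.6% in Fibcd1, 88.8% in Mpped1 and 72.4% in Man1a, against a median of 52.4% over 32851 windows of the same length. The GC box was found 4 times in Wfs1, 1 time in Fibcd1, 7 times in Mpped1 and 2 times in Man1a, counting both strands and the bases not printed, and 32.7% of all windows held at least 1. That share is over windows of every GC content, and windows as rich in G and C as these were not counted apart. CAGATG was found 1 time in Wfs1 and is held by 14.4% of all windows. The POU octamer ATGCAAAT (1.60% of all windows), the E box CAGCTG (13.0%), TATAAA (12.4%) and the CRE TGACGTCA (1.55%) matched none of the 4 windows. A further Mpped1 window, chr15:83784579-83784828, had a GC content of 46.8% and no match to any of the 6 motifs, and the table does not separate the starts of a gene. A match is a description of letters and not of binding.

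The authors' table gives FPKM, a read level per length of gene and per size of library, from which whole reads were recovered. These summed to between 16400328 and 17109734 per library. Mouse Mapt was near level, at an FPKM of 63.0 (WT), 65.1 (PS19) and 65.3 (PS19 Zbp1+/-). Zbp1 had 5, 91 and 0 reads in the same order. Against PS19, the library labelled PS19 Zbp1+/- had a read ratio of at most 0.0452 (exact upper bound), lower than the loss of one of 2 alleles alone would give. Against WT the bound was 1.19, so these few reads cannot place it. The loss of one allele is therefore taken from the label and not from these reads. The library labelled PS19 Zbp1+/- also held reads of the Y-linked Ddx3y (711) and Eif2s3y (495) and none of Xist, the X inactivation transcript, whereas WT and PS19 held 11062 and 13350 Xist reads and none of Ddx3y or Eif2s3y. Genotype and sex therefore cannot be told apart in either comparison of PS19 Zbp1+/-. Each marker had at least 1191 reads in every library, so the intervals below, exact at 95%, are narrow. They cover counting error only and not the variation between animals.

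In WT, the order of the 5 levels was Mpped1, Wfs1, Fibcd1, Pou3f1 and Man1a. Mpped1 stood first at an FPKM of 50.1 (exact Poisson interval 48.5 to 51.7). Wfs1 at 38.8 (37.3 to 40.4) and Fibcd1 at 37.0 (35.7 to 38.4) overlapped in their intervals and cannot be ordered. In PS19 the order was the same, again with Wfs1 and Fibcd1 overlapping. In PS19 Zbp1+/- the order was Fibcd1, Mpped1, Pou3f1, Wfs1 and Man1a, and no neighbouring intervals overlapped. Wfs1 was thus below Pou3f1 in that library and above it in the others. Its share of the summed FPKM of the 5 markers was 24.8% (WT), 24.4% (PS19) and 9.77% (PS19 Zbp1+/-), while the share of Fibcd1 was 23.7%, 24.3% and 38.8%.

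Fibcd1 (ENSMUSG00000026841, on the minus strand of GRCm38 chromosome 2 from 31813290 to 31846005) had an FPKM of 37.0 (WT), 27.0 (PS19) and 111 (PS19 Zbp1+/-), from 3036, 2220 and 8364 reads. PS19 was the lowest library and PS19 Zbp1+/- stood far above both others. Per library size, the read ratio of PS19 over WT was 0.730 (exact Clopper-Pearson interval 0.691 to 0.771). The ratio was 4.12 for PS19 Zbp1+/- over PS19 (3.93 to 4.31) and 3.003 for PS19 Zbp1+/- over WT (2.88 to 3.13).

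Mpped1 (ENSMUSG00000041708, on the plus strand of GRCm38 chromosome 15 from 83779467 to 83858494) had an FPKM of 50.1 (WT), 31.3 (PS19) and 96.3 (PS19 Zbp1+/-), from 3713, 2322 and 6548 reads. The order of the libraries was that of Fibcd1. Its read ratio of 0.624 for PS19 over WT (0.592 to 0.658) was the lowest of the 5 markers in that comparison. The ratio was 3.08 for PS19 Zbp1+/- over PS19 (2.94 to 3.23) and 1.92 for PS19 Zbp1+/- over WT (1.85 to 2.002).

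Pou3f1 (ENSMUSG00000090125, on the plus strand of GRCm38 chromosome 4 from 124656807 to 124660655) had an FPKM of 22.6 (WT), 18.8 (PS19) and 40.4 (PS19 Zbp1+/-), from 1502, 1251 and 2459 reads. WT and PS19 lay close together and PS19 Zbp1+/- above them. The read ratios were 0.831 for PS19 over WT (0.771 to 0.897), 2.15 for PS19 Zbp1+/- over PS19 (2.01 to 2.30) and 1.79 for PS19 Zbp1+/- over WT (1.67 to 1.90). The antisense gene Gm2164 overlaps Pou3f1 and the use of strand in counting is not given in the sources used here, so reads of the pair cannot be told apart; the table credits Gm2164 with 21, 24 and 20 reads.

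Man1a (ENSMUSG00000003746, on the minus strand of GRCm38 chromosome 10 from 53904785 to 54076609) had the lowest level of the 5, an FPKM of 7.94 (WT), 7.14 (PS19) and 10.5 (PS19 Zbp1+/-), from 1322, 1191 and 1606 reads. It showed the order of Fibcd1 with smaller steps. The ratios were 0.899 for PS19 over WT (0.831 to 0.973), 1.47 for PS19 Zbp1+/- over PS19 (1.37 to 1.59) and 1.32 for PS19 Zbp1+/- over WT (1.23 to 1.43). Of the genes that overlap Man1a on the other strand, Gm16998 had 3, 7 and 16 reads and Gm47917 had 1, 0 and 6.

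Wfs1 (ENSMUSG00000039474, on the minus strand of GRCm38 chromosome 5 from 36966104 to 36989205) went apart from the other 4, with an FPKM of 38.8 (WT), 27.1 (PS19) and 28.0 (PS19 Zbp1+/-), from 2537, 1775 and 1678 reads. Both transgenic libraries lay below WT, at ratios of 0.698 (0.657 to 0.742) and 0.721 (0.678 to 0.767). Between them the ratio was 1.03 (0.965 to 1.11), an interval that holds 1. Within a library, Fibcd1 was 0.954 times Wfs1 in WT, 0.997 times in PS19 and 3.97 times in PS19 Zbp1+/- (ratio of FPKM), a relation that scaling a whole library cannot alter.

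**Figure D1:**
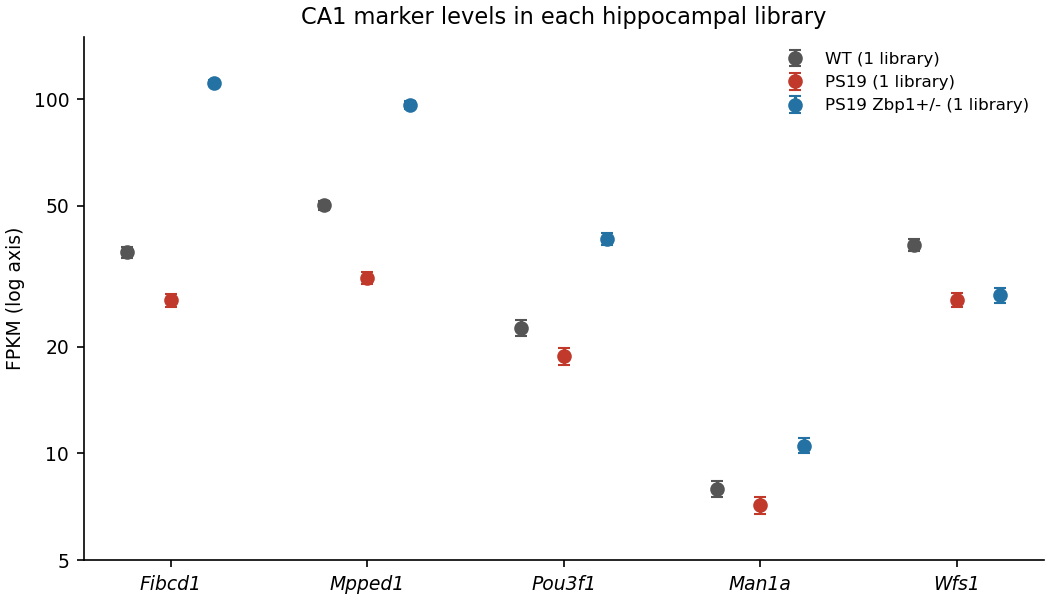
FPKM of the 5 CA1 markers (log axis) in the WT, PS19 and PS19 Zbp1+/- libraries; each point is 1 library and the bars are exact Poisson 95% intervals for counting error. For Fibcd1, Mpped1, Pou3f1 and Man1a, PS19 is lowest and PS19 Zbp1+/- highest, while for Wfs1 the intervals of PS19 Zbp1+/- (28.0) and PS19 (27.1) overlap.

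**Figure D2:**
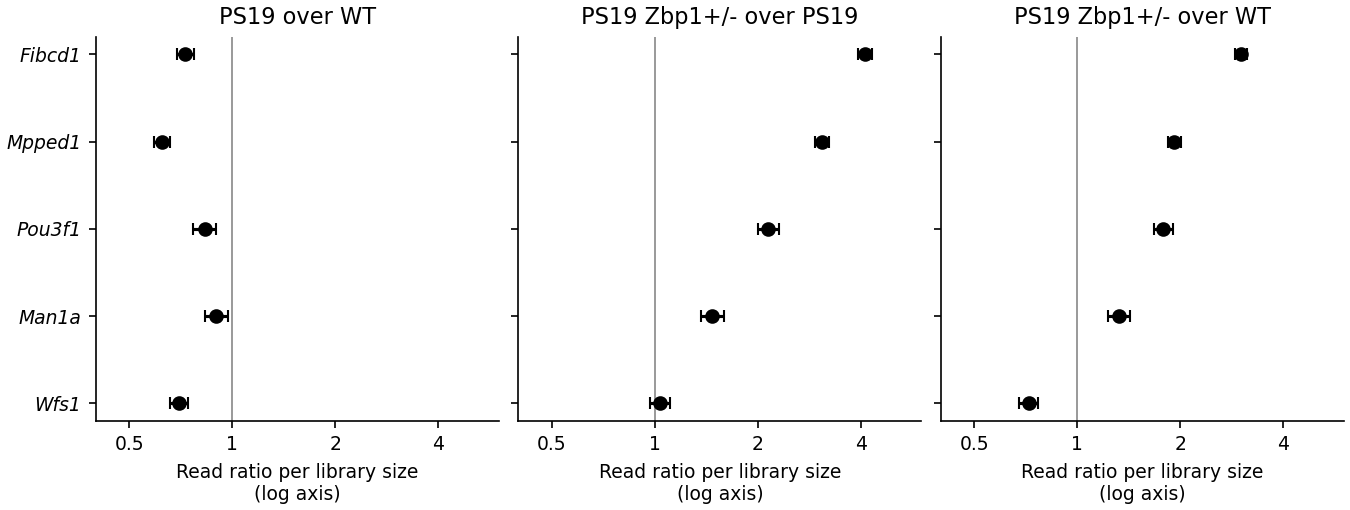
Read ratio per library size (log axis) of each marker in the 3 comparisons, with exact Clopper-Pearson 95% intervals; the vertical line marks a ratio of 1. All 5 ratios of PS19 over WT lie below 1, and Wfs1 is the only marker whose interval for PS19 Zbp1+/- over PS19 (0.965 to 1.11) holds 1.

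The first comparison asks how the hippocampus with the tau transgene differs from WT. All 5 markers were lower in PS19, except that Pou3f1 (0.06) and Man1a (0.18) turned positive when the libraries were scaled to the pan-neuronal median. On the scale of differences of log2(FPKM + 1), where 1 unit is 2-fold, Mpped1 was at -0.66, Wfs1 at -0.50, Fibcd1 at -0.44, Pou3f1 at -0.25 and Man1a at -0.14. The median of the 5 was -0.44, against -0.03 over 12703 protein-coding genes that reached an FPKM of 1 in one of the libraries compared. Of those genes, 53.7% were lower and 46.3% higher by any amount. None of the 5 was lower by 1 unit or more, as were 0.291% of all genes tested, or higher by as much, as were 2.20%. In bulk tissue, fewer cells of a type and less RNA per cell cannot be told apart.

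Neuronal genes in general were lower in the PS19 library too. All 12 genes of a pan-neuronal list were below WT, with a median difference of -0.31, from Stmn2, a microtubule regulator of axons, at -0.57 and Uchl1, a ubiquitin hydrolase abundant in neurons, at -0.55 to Map2, of dendritic microtubules, at -0.03. Per 100 FPKM of that list, Wfs1 was at 2.42 in WT and 2.15 in PS19, Mpped1 at 3.12 and 2.48, and Fibcd1 at 2.30 and 2.14. Pou3f1 and Man1a went the other way on this measure, from 1.41 to 1.49 and from 0.494 to 0.565. The lower level of Wfs1, Mpped1 and Fibcd1 in PS19 was therefore larger than that of the list, and the lower level of Pou3f1 and Man1a was not. Glial markers moved with this comparison. The summed FPKM of 10 microglial markers was 179 in WT and 638 in PS19, that of 10 oligodendrocyte markers 922 and 1649, and that of 10 astrocyte markers 659 and 1558, with no marker of these lists at 0. Gfap, the filament protein of reactive astrocytes, made up most of the last difference, at 98.4 and 768 FPKM: the other 9 astrocyte markers summed to 561 and 790, and the list median was 0.46. The microglial markers did not move alike: 9 were higher in PS19 and 1, P2ry12, was lower, at 11.15 and 10.09 FPKM. Tmem119 was near level, at 11.0 and 12.4, and the list median was 1.77. The sum of 4 thalamus markers was 15.6 and 34.6, with Prkcd at 8.15 and 23.1 FPKM. The part of tissue makeup in the lower CA1 markers was not tested.

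The second comparison asks how the PS19 hippocampus changes when Zbp1 dosage is lowered, and rests on the library labelled PS19 Zbp1+/-, which held 0 Zbp1 reads. All 5 markers were higher in PS19 Zbp1+/- than in PS19, Wfs1 by an amount within counting error, and 3 of them by 1 unit or more. Fibcd1 was at 2.0, Mpped1 at 1.59 and Pou3f1 at 1.06, while Man1a was at 0.50 and Wfs1 at 0.04. Among the 12772 genes tested, 255 or 2.0% were higher by 1 unit or more, and 659 or 5.16% were lower; with each library rescaled to the same sum of FPKM (TPM) these numbers were 186 and 1495. Fibcd1 ranked 10 from the top of all genes tested, Mpped1 36, Pou3f1 206, Man1a 1678 and Wfs1 6342. The markers were chosen with earlier results of these data known, so their ranks and counts are no independent evidence. The median of the 5 was 1.06, against 0.04 over all genes, of which 53.7% were higher and 46.3% lower by any amount. Pou3f1 fell short of 1 unit under every other scaling of the libraries, at 0.99 with median-ratio scaling and 0.81 in TPM. Wfs1 turned negative under them, to -0.03 and -0.24.

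**Figure D3:**
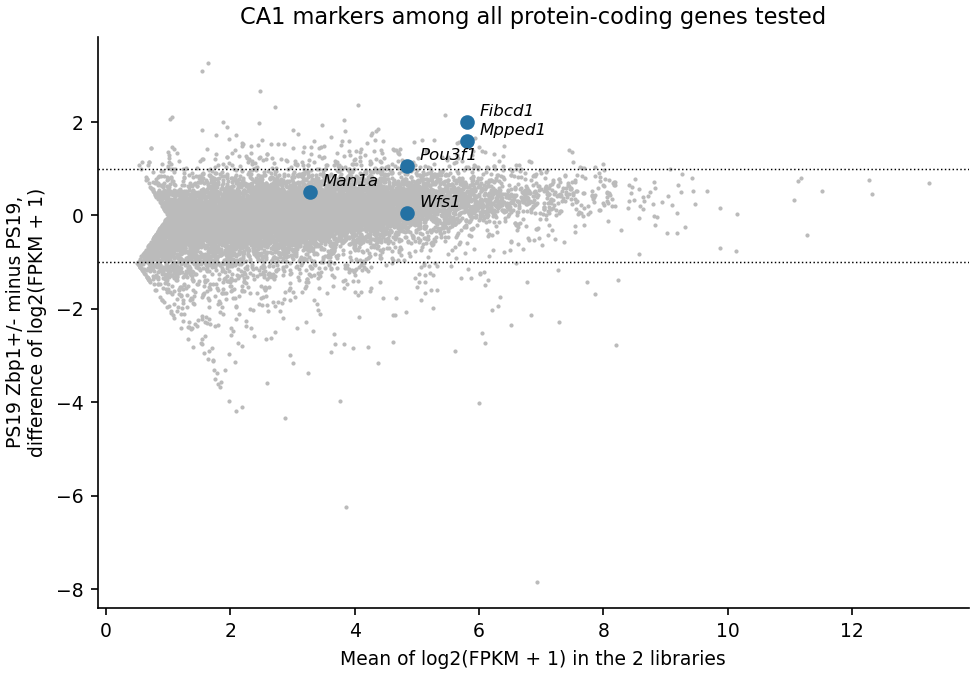
Difference of log2(FPKM + 1) between PS19 Zbp1+/- and PS19 against the mean of log2(FPKM + 1) in the 2 libraries; grey points are the 12772 protein-coding genes tested, blue points the 5 CA1 markers, and dotted lines mark 1 unit up and down. Fibcd1 (2.0) and Mpped1 (1.59) lie at the upper edge of genes of their level, Pou3f1 (1.06) on the line, and Wfs1 (0.04) in the middle of the cloud.

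Neuronal genes as a group were also higher here, by less. As deposited, all 12 pan-neuronal genes were above PS19, with a median of 0.50 as deposited, 0.32 by total reads and 0.23 in TPM, from Snap25, a vesicle fusion protein, at 0.13 to Celf4, an RNA-binding protein, at 1.04. The median of the 6 excitatory neuron genes was 0.55 as deposited, 0.36 by total reads, 0.29 after the GC and length correction, 0.27 in TPM and 0.04 on the pan-neuronal scale, led by Slc17a7, the vesicular glutamate transporter, at 1.10 as deposited. Per 100 FPKM of the pan-neuronal list, Fibcd1 was at 2.14 in PS19 and 6.03 in PS19 Zbp1+/-, Mpped1 at 2.48 and 5.22, and Pou3f1 at 1.49 and 2.19. Man1a was level on this measure, at 0.565 and 0.570, and Wfs1 was lower, at 2.15 and 1.52. Relative to other neuronal RNA, the 5 markers thus split into 3 that were higher, 1 that was level and 1 that was lower.

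Markers of several other cell types and tissues moved in this comparison as well, and cell number and RNA per cell cannot be told apart. Between PS19 Zbp1+/- and PS19 the median was -0.18 for 8 endothelial, 0.13 for 2 oligodendrocyte precursor and 0.20 for 6 striatum markers. Their summed FPKM in PS19 and PS19 Zbp1+/- was 64.2 and 71.8, 8.43 and 8.72, and 31.1 and 22.6 in that order. The summed FPKM of the microglial list was 638 in PS19 and 191 in PS19 Zbp1+/-, that of the oligodendrocyte list 1649 and 599, and that of the astrocyte list 1558 and 758. Without Gfap, at 768 and 112 FPKM, the astrocyte sum was 790 and 645, and Aldoc, a glycolytic enzyme, was higher, at 239 and 295. All 10 microglial markers were lower, P2ry12 (10.09 and 8.66 FPKM) and Tmem119 (12.4 and 10.2) by the least. Choroid plexus markers, 8 in all, summed to 3455 (WT), 2196 (PS19) and 26.1 (PS19 Zbp1+/-), and thalamus markers to 15.6, 34.6 and 11.5. Prkcd made up most of the thalamus sum in PS19, at 8.15, 23.1 and 1.69 FPKM in the same order. Ntng1 alone of the 4 thalamus markers went the other way from PS19 to PS19 Zbp1+/-, at 5.86, 6.61 and 9.02 FPKM. None of these lists had a marker at 0 in any library. Cortical layer markers, 6 in all, summed to 33.3, 24.8 and 52.0, with Fezf2, a transcription factor of deep-layer projection neurons, at 14.4, 9.63 and 33.9 FPKM and Rorb, a nuclear receptor of the middle layers, at 1.69, 1.90 and 1.24. Fezf2 made up most of the cortical difference between PS19 and PS19 Zbp1+/-, at 1.72, and the median of the 5 cortical markers tested was 0.08. Whether more CA1 or less of other tissue in the dissected piece has a part in the marker levels was not tested.

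GC content moved with this difference. Over all genes tested, the median difference between PS19 Zbp1+/- and PS19 was -0.14 in the lowest of 5 equal groups by GC content and 0.25 in the highest. The longest transcripts of Pou3f1 (63.9% GC), Fibcd1 (59.4%) and Wfs1 (57.8%) fall in the highest group, Mpped1 (53.7%) in the fourth and Man1a (45.4%) in the second. After the median of genes of like GC content and length was subtracted, Fibcd1 was at 1.66, Mpped1 at 1.48, Pou3f1 at 0.72, Man1a at 0.56 and Wfs1 at -0.20. Fibcd1 and Mpped1 thus stayed past 1 unit and Pou3f1 did not.

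**Figure D4:**
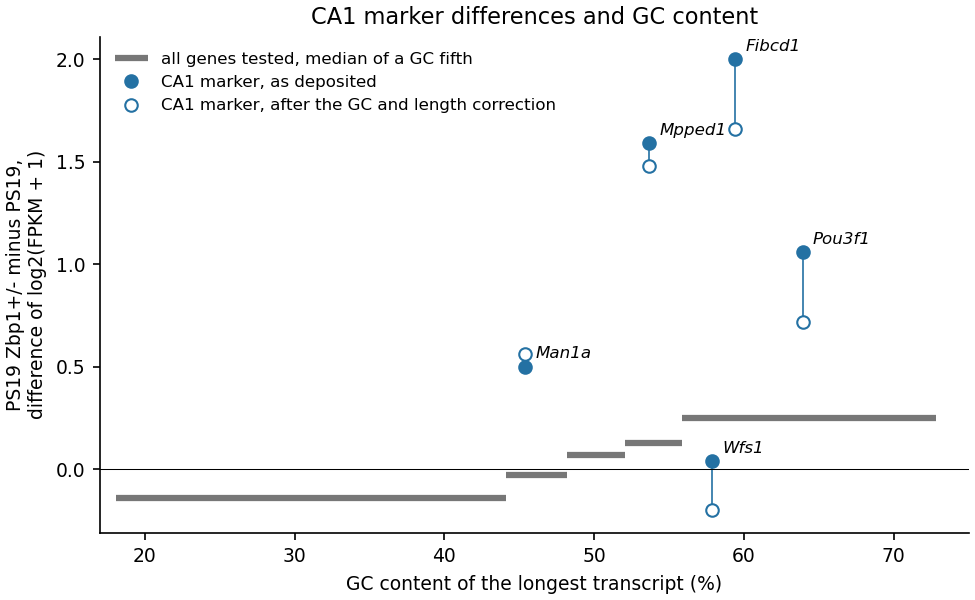
Difference of log2(FPKM + 1) between PS19 Zbp1+/- and PS19 against the GC content of the longest transcript; grey bars are medians of all genes tested in 5 equal groups by GC content, filled circles the markers as deposited, and open circles the markers with the median of genes of like GC content and length subtracted. The medians go from -0.14 to 0.25 with GC content; Fibcd1 moves from 2.0 to 1.66 and Pou3f1 from 1.06 to 0.72.

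The third comparison sets the library labelled PS19 Zbp1+/- against WT. It shares its libraries with the other comparisons and is no independent evidence. Fibcd1 was higher by 1.56, Mpped1 by 0.93, Pou3f1 by 0.81 and Man1a by 0.37, and Wfs1 was at -0.46. One marker of 5, Fibcd1, was past 1 unit, as were 133 of the 12436 genes tested, or 1.07%, with 283 or 2.28% lower by as much (147 and 626 in TPM). By any amount, 4 of 5 were higher and 1 was lower, against 51.0% and 49.0% of all genes. PS19 Zbp1+/- therefore lay above the WT level for Fibcd1, Mpped1, Pou3f1 and Man1a, and below it for Wfs1. As deposited, PS19 was the lowest library for all 5 markers, as it was for 37.7% of 12875 genes that reached an FPKM of 1 in any library. For Wfs1 its interval (25.9 to 28.4) overlapped that of PS19 Zbp1+/- (26.7 to 29.4), and their order turned under every other scaling and under the GC and length correction.

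Of 6 further genes known as enriched in CA1, all 6 were lower in PS19 than in WT, with a median of -0.38 as deposited and -0.06 on the pan-neuronal scale, where Gpr161 (0.26) and Ndst4 (0.20) turned positive, as did Gpr161 in TPM (0.07). Of the 6, 5 were higher in PS19 Zbp1+/- than in PS19, with a median of 0.76 as deposited and 0.26 on the pan-neuronal scale, of which Neurod6 turned negative in TPM (-0.10) and on the pan-neuronal scale (-0.32). Crym, a thyroid hormone-binding crystallin, had an FPKM of 71.2 (WT), 37.5 (PS19) and 105 (PS19 Zbp1+/-), at -0.91 and 1.47 in the 2 comparisons. Gpr161, a receptor of the primary cilium, had 10.4, 10.0 and 19.7. Ndst4, an enzyme of heparan sulfate synthesis, had 2.13, 1.89 and 3.57. As deposited, Crym, Gpr161 and Ndst4 had PS19 as the lowest library and PS19 Zbp1+/- as the highest, as Fibcd1 did. Neurod6, a transcription factor of pyramidal neurons, had 69.4, 50.8 and 57.9, between the patterns of Fibcd1 and Wfs1. Spink8, a protease inhibitor gene, had 20.97, 14.7 and 11.4, from 297, 208 and 148 reads, so that both transgenic libraries were below WT, as for Wfs1. Unlike Wfs1, Spink8 was lower in PS19 Zbp1+/- than in PS19, at a read ratio of 0.777 (0.625 to 0.964). The further genes thus also differed in pattern among themselves. They were chosen with earlier results of these data known and are no independent evidence.

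Markers of the other hippocampal fields were mixed in PS19 Zbp1+/-, with more genes lower than higher. Of 11 genes of CA3 and CA2, 4 were higher and 7 lower than in PS19, although their summed FPKM was 153 in PS19 and 169 in PS19 Zbp1+/-. They had a median of -0.54 between PS19 Zbp1+/- and PS19, with Pcp4 at -1.42 and Coch at -1.07 at one end and Necab2 at 0.80 and Rgs14, a signalling regulator of CA2, at 0.58 at the other. The 11 dentate granule neuron genes that were tested, of 12 listed, had 3 higher and 8 lower and a median of -0.43, from the desmosomal gene Dsp at -1.17 and the lactase gene Lct at -1.04 to Calb1, a calcium buffer also known from CA1 neurons, at 1.17. The 9 interneuron genes had a median of -0.06 as deposited, and of -0.34 in TPM, -0.24 by total reads, -0.19 after the GC and length correction and -0.56 on the pan-neuronal scale. Summed over FPKM, the CA1 markers were 1.10 times the dentate list in WT, 1.06 times in PS19 and 2.80 times in PS19 Zbp1+/-, and 0.868, 0.727 and 1.70 times the CA3 and CA2 list. Between PS19 and WT the CA3 and CA2 median was -0.03, the dentate median -0.02 and the interneuron median 0.01. Their summed FPKM in WT and PS19 was 180 and 153, 143 and 105, and 529 and 415 in the same order. That of the CA1 markers was 156.5 and 111.4. Of the dentate genes, 7 were lower and 4 higher in PS19, from Calb1 at -1.02 and Plk5 at -0.60 to Dock10 at 0.22. Of the interneuron genes, 3 were lower, with Sst at -0.64, and 6 higher. The signs of the CA3 and CA2 and the dentate medians in that comparison turn with the scaling. Between PS19 Zbp1+/- and PS19 the signs of the medians of CA3 and CA2, of the dentate list, of the pan-neuronal list and of the further CA1 genes were the same under all settings tried.

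**Figure D5:**
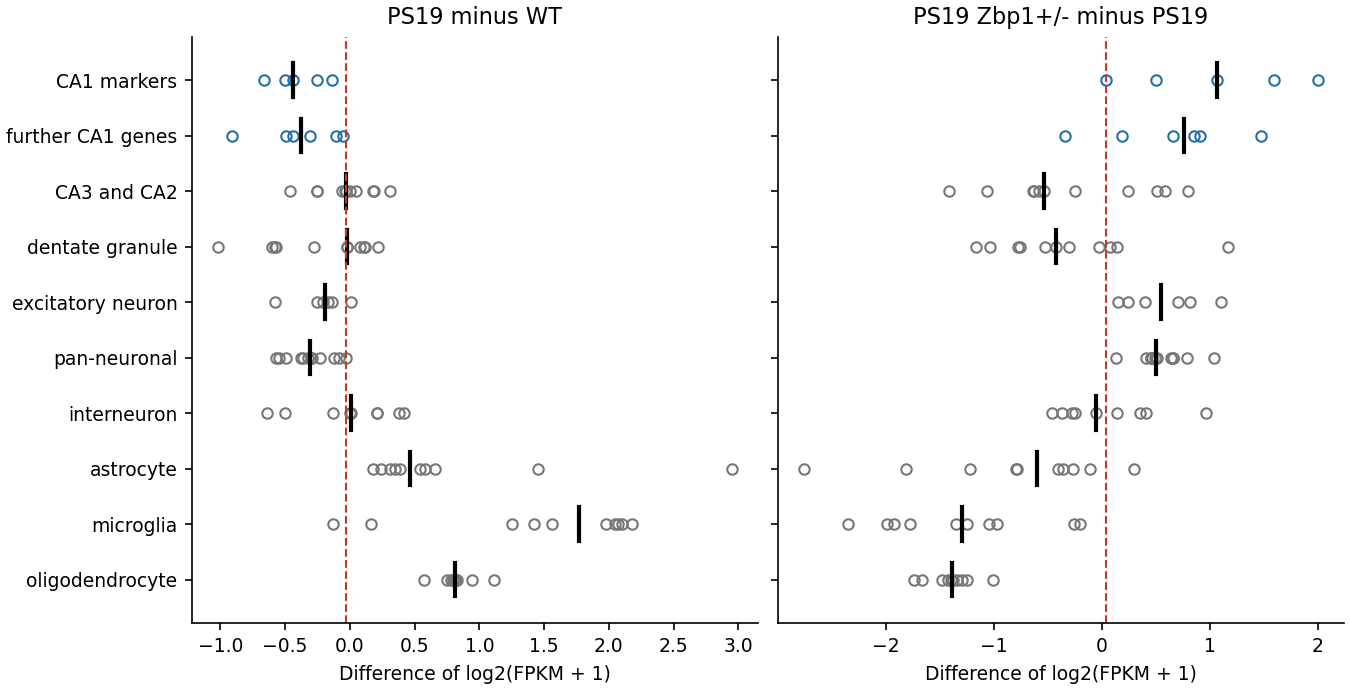
Difference of log2(FPKM + 1) of each tested gene (circles) in 10 gene lists, with PS19 against WT in the first panel and PS19 Zbp1+/- against PS19 in the second; black bars are list medians and the dashed red line is the median of all genes tested. The CA1 markers and the further CA1 genes have medians of -0.44 and -0.38 in the first panel and of 1.06 and 0.76 in the second, where the CA3 and CA2 list is at -0.54 and the dentate list at -0.43; both panels share the PS19 library.

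The 5 listed genes of the ventral part of CA1 and of the subiculum were mixed. In PS19, 2 were lower and 3 higher than in WT, with a median of 0.13. In PS19 Zbp1+/-, 4 were higher and 1 lower than in PS19, with a median of 0.42. Nov, a secreted matricellular protein, had an FPKM of 53.1 (WT), 19.8 (PS19) and 90.9 (PS19 Zbp1+/-). Dcn, a small proteoglycan known from ventral CA1 and also from meningeal fibroblasts, had 11.3, 4.70 and 20.7. Both followed the order of Fibcd1, at -1.38 and 2.14 for Nov and -1.11 and 1.93 for Dcn in the first 2 comparisons. Slc17a6, the glutamate transporter of subiculum and thalamus, had 2.98, 7.48 and 4.46, and was highest in PS19. Fn1 had 3.67, 6.16 and 6.86, and was lowest in WT.

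The genes most like the markers were taken as those with the smallest distance in the plane of the first 2 differences, over 3 libraries and among 8434 protein-coding genes that reached an FPKM of 5 in any library. For the median profile of the markers these were Jph4 (junctophilin 4; distance 0.0181 log2 units), ENSMUSG00000040502 (a membrane-associated ring finger gene; 0.0388), Efnb2 (ephrin B2; 0.0481), Camk1g (a calmodulin-dependent kinase; 0.0499) and Celf4 (0.0564). Jph4 had an FPKM of 69.5 (WT), 51.5 (PS19) and 108 (PS19 Zbp1+/-). The nearest genes to Fibcd1 were Nxph3 (neurexophilin 3; 0.196) and Gabra2 (a GABA-A receptor subunit; 0.212), those to Mpped1 Fam171a2 (0.0265) and Adra2c (an adrenergic receptor; 0.0380), and those to Pou3f1 Frzb (0.00771) and Nrsn2 (0.0122). The nearest genes to Wfs1 were Cox5b (a respiratory chain subunit; 0.00603) and Mrps16 (a mitochondrial ribosomal protein; 0.00745), and those to Man1a were Armcx4 (0.00145) and Lrrc47 (0.0111). Fibcd1, whose difference is the largest, had the most distant neighbours. Apart from those of Fibcd1, the distances are smaller than the width of the markers' counting intervals. Which genes lie nearest is therefore not resolved for the other markers.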

How the data were processed

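RNA-seq of hippocampus from 3 mouse genotypes was analysed, with 1 library each. Per the labels' protocols, TRIzol was used for extraction and an NEB Next Ultra kit for the libraries. The submitters' processing notes name Trim Galore 0.6.5, STAR 2.5.3a, featureCounts 2.0.4 and the build mm39. Gene positions in the table equal those of GENCODE M21 (GRCm38) for 98.3% of 54409 shared gene IDs and for all 5 markers, so positions are given as GRCm38. Pooling, strandedness and annotation release are not given in the sources used here.

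The authors deposited FPKM values, with the gene length in bases. FPKM times length was a whole multiple of 1 step (within 0.02 of a step) in 100% of the nonzero values, which gave whole reads and implied library sizes of 17253479 (WT), 17287957 (PS19) and 15826984 (PS19 Zbp1+/-). These differ from the summed reads, so the values carry a scaling set by the authors. Reads are not independent molecules.

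Differences were taken of log2(FPKM + 1) over protein-coding genes that reached an FPKM of 1 in one of the libraries compared, with a threshold of 1 log2 unit (2-fold). The pseudocount understates changes of low genes. Read ratios use the implied library sizes. No test was possible with 1 library a group. Alternatives changed the pseudocount, the scaling, the filter on low values, the gene types tested and the threshold, or subtracted medians over bins of GC content and length. The 5 markers and the other 16 lists (130 genes with the markers) were chosen with earlier results of these data known. Named genes are the markers, the further CA1 genes (1 of which is counted with its list and not reported here by itself), up to 4 per list at the ends of its range, Zbp1, Mapt and, chosen after their values were seen, Xist, Ddx3y and Eif2s3y, and the nearest genes in pattern (5 for the median, 2 per marker). GC content is that of the longest GENCODE M21 transcript. BLAST 2.17.0 against those transcripts found no other gene at 90% identity or more over 100 bases for 4 markers, and the overlapping Gm2164 for Pou3f1. Recovery of reads, calls of 4-fold changes and intervals were tried on simulated Poisson counts. These held counting error only, with no variation between animals and no shift by GC content or tissue makeup. The work used scipy 1.17.1, pandas 2.3.3 and numpy 2.4.6 under Python 3.11.15, with matplotlib 3.10.9 for figures.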

Additional observations from a re-analysis of the deposited data

How the results depend on the processing

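No paired analysis was possible because each genotype has 1 library, and for the same reason no library could be left out. The marker median between PS19 and WT, -0.44 as deposited, was -0.32 in TPM and -0.13 when scaled to the pan-neuronal median. Between PS19 Zbp1+/- and PS19 it was 1.06 as deposited, 0.88 when scaled by total reads, 0.81 in TPM, 0.72 after correction for GC content and length, and 0.56 when scaled to the pan-neuronal median. Between PS19 Zbp1+/- and WT it was 0.81 as deposited, 0.67 in TPM, 0.66 by total reads, 0.56 on the pan-neuronal scale and 0.50 after the GC and length correction. The other 11 values of these medians, among them those with pseudocounts of 0.1 and 0.5, moved by less than the counting interval. At 1.5-fold, 1 marker was lower in PS19 than in WT (0 at 2-fold) and 3 were higher in PS19 Zbp1+/- than in WT (1 at 2-fold). At 4-fold, 1 marker was higher in PS19 Zbp1+/- than in PS19 (3 at 2-fold) and 0 than in WT. The 3 markers past 2-fold over PS19 became 2 in TPM, by total reads, by the median ratio, on the pan-neuronal scale and after the GC and length correction. Single markers that changed sign were Wfs1 between the transgenic libraries (-0.24 in TPM, -0.14 by total reads, -0.03 by the median ratio, -0.46 on the pan-neuronal scale, -0.20 after the GC and length correction) and, between PS19 and WT on the pan-neuronal scale, Pou3f1 (0.06) and Man1a (0.18).

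The median of all genes between PS19 Zbp1+/- and PS19 was 0.041 as deposited, -0.225 in TPM, -0.118 by total reads and -0.460 on the pan-neuronal scale. Between PS19 Zbp1+/- and WT it was 0.010, -0.139, -0.122 and -0.237 in that order, and between PS19 and WT it was -0.026, 0.093, 0.002 and 0.287. Counts of all genes higher and lower moved over 1.5 times under 42 of 72 alternative values: from 280 and 37 between PS19 and WT to between 37 and 806 higher and between 2 and 344 lower, from 255 and 659 between PS19 Zbp1+/- and PS19 to between 10 and 1197 and between 104 and 1884, and from 133 and 283 between PS19 Zbp1+/- and WT to between 7 and 834 and between 53 and 886. The cause of these shifts was not tested, other than that a threshold or filter changes which genes can be counted. Alternatives for the list medians and the further CA1 genes were added after seeing the data.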

Other observations

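Genes beside the markers on the chromosome were looked at after the marker values had been seen, within 200 kb and at an FPKM of at least 1 in any library. The 6 protein-coding neighbours of Fibcd1 differed between PS19 Zbp1+/- and PS19 by -0.29 (Fubp3) to 0.47 (Nup214), against 2.0 for Fibcd1. Beside Mpped1, Scube1, a secreted and membrane-bound glycoprotein gene, had an FPKM of 1.72 (WT), 1.67 (PS19) and 4.5 (PS19 Zbp1+/-), a difference of 1.04 between the transgenic libraries from 283 and 700 reads, while Ttll12 differed by 0.16 and Efcab6 by 0.01. Beside Pou3f1, the protein-coding neighbours lay between -0.17 (Utp11) and 0.65 (1110065P20Rik). Beside Man1a, Fam184a was at -0.93, against 0.50 for Man1a. Beside Wfs1, the protein-coding neighbours lay between -0.17 (Man2b2) and 0.50 (Gm1043). In WT, PS19 and PS19 Zbp1+/-, Man2b2 had 8.66, 16.7 and 14.8 FPKM, higher in both transgenic libraries, and Mrfap1 had 229, 170.1 and 210.4, lower in both, as Wfs1 was.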
